A study of Mus musculus with 37 samples.

Results

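CTCF and the cohesin complex fold chromosomes into loops. Cohesin is a ring of SMC1A, SMC3 and RAD21 that carries a STAG1 or STAG2 subunit. NIPBL loads the ring and drives it to extrude DNA, WAPL releases it from chromatin, and CTCF bound to its motif halts it, so that many loop ends lie at CTCF sites that point toward each other. In neurons, which no longer divide, this machinery serves gene regulation rather than the pairing of sister chromatids, and loss of Ctcf or of cohesin from mouse forebrain neurons is known to disturb neuronal gene expression.

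The genes described are Ctcf, its testis paralog Ctcfl (BORIS), the ring genes Rad21, Smc1a and Smc3, Stag1 and Stag2, Nipbl, Wapl, and Zfp143, which encodes a zinc-finger protein of promoters that has been linked to looping. They were chosen by name, and all 10 were found among the 48795 genes of the count table. The table holds RNA-seq of whole hippocampus from 3 Kdm1a-ifKO mice and 3 control mice, 1 library each, all male C57BL/6J. Kdm1a encodes an eraser of methyl groups on histone H3 lysine 4. In Kdm1a-ifKO mice, loxP sites flank exons 5 and 6 of Kdm1a, and the tamoxifen-dependent recombinase creERT2 under the Camk2a promoter removes them in excitatory neurons of the forebrain. Both genotypes received 5 intragastric doses of tamoxifen as young adults, at 8 weeks, and the controls were littermates without creERT2. The age at which RNA was taken is not given in the sources used here. The comparison asks how neuronal loss of KDM1A alters the RNA of these genes. A separate data set, a CTCF ChIA-PET library, lists DNA contacts held by CTCF in sorted nuclei of Camk2a-expressing hippocampal neurons. They came from male mice of 12 weeks that carry Camk2a-creERT2 and a Sun1-GFP nuclear label and had received tamoxifen 1 month earlier. It is 1 library without replicates and has no Kdm1a-ifKO counterpart here, so its values are descriptions.

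The control libraries held 19160327, 19088998 and 18985542 counts, and the Kdm1a-ifKO libraries 19469947, 19445743 and 19370926. Levels are given as CPM, counts scaled by TMM-adjusted library size, and differences as log2FC, the log2 ratio of Kdm1a-ifKO to control fitted by edgeR. A gene was called when its p-value, adjusted over all 16799 genes with enough counts to be tested, was under 0.05. The genotypes separated on the first principal component, which held 50.9% of the variance. Control 3 and Kdm1a-ifKO 2 stood apart from the other libraries on the second, which held 17.4%.

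Kdm1a itself (ENSMUSG00000036940, chr4:136550540-136602723, GRCm38) measured 79.5, 81.1 and 79.6 CPM in the controls and 39.3, 36.9 and 38.4 CPM in the Kdm1a-ifKO libraries. It fell by 1.07 on the log2 scale (edgeR adjusted p = 6.24e-08), with each Kdm1a-ifKO library below each control. RNA from cells outside the Camk2a lineage is part of every library, and in whole tissue fewer cells of a type cannot be told apart from less RNA per cell.

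None of the 10 genes was called by edgeR in the comparison described above, though Nipbl and Wapl were called under other settings given below. Of the 10 genes, 9 had enough counts to be tested and 0 passed the adjusted threshold in edgeR, in a comparison where 8.85% of all tested genes did, 6.04% higher and 2.82% lower in Kdm1a-ifKO. DESeq2 also called 0 of them. At an unadjusted p under 0.05, edgeR listed 2, Stag1 and Wapl, both lower, beside 11.3% of all tested genes that were lower by that rule. DESeq2 listed 3. The fitted log2FC lay below 0 for all 9 tested genes, with a median of -0.07 against -0.0034 over all tested genes, of which 50.9% lay below 0. Among genes of at least 10 CPM, the share below 0 rose with gene span, as given below. With upper-quartile or plain library-size scaling, however, Ctcf, Rad21 and Smc3 lay above 0. With 1 library left out, the median of the 9 ran from -0.099 (without control 2) to -0.037 (without control 3). Without control 3, Rad21, Smc3 and Stag2 lay above 0. The differences run in size from almost 0 for Rad21 to the values of Stag1, Wapl and Nipbl, which are described below by role.

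**Figure D1:**
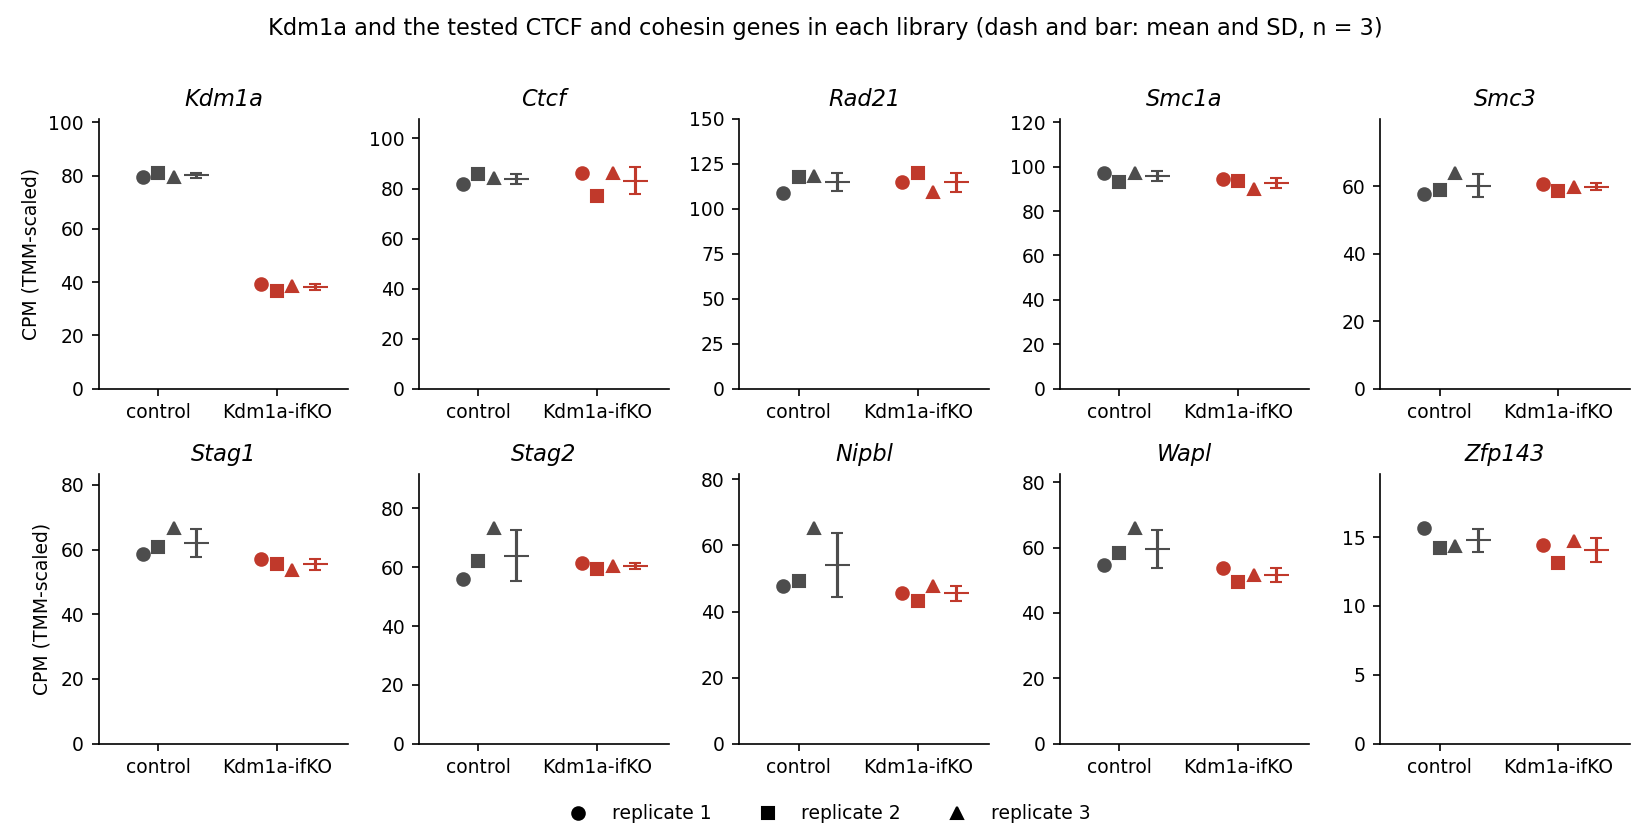
CPM of each gene in each library, and of Kdm1a, with controls in grey, Kdm1a-ifKO in red, and the mean and SD (n = 3) beside the points. Control 3 is the highest library for Nipbl at 65.4 CPM, Stag2 at 73.5 CPM and Wapl at 66.1 CPM.

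The promoters of 4 of these genes are shown because they bear on the data in different ways. The promoters of Ctcf and Stag1 lie inside anchors, the ends of a CTCF loop, and that of Smc3 touches an anchor. The promoter of Wapl, the gene with the smallest p-value of the 10, has none. RefSeq's promoter table (GRCm38.p6), with 250 bases before and 50 after each start, held 6 of the 10 genes. Ctcfl, Rad21, Stag2 and Nipbl had no entry. Each promoter is on the plus strand and is written in lower case with motif matches in capitals.
Ctcf, chr8:105636288-105636587: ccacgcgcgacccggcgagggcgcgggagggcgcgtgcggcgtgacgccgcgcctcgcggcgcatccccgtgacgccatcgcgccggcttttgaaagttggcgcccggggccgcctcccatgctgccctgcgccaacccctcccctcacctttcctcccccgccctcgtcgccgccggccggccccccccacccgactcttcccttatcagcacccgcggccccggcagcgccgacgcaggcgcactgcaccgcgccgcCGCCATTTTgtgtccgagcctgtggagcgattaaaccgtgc
Smc3, chr19:53600146-53600445: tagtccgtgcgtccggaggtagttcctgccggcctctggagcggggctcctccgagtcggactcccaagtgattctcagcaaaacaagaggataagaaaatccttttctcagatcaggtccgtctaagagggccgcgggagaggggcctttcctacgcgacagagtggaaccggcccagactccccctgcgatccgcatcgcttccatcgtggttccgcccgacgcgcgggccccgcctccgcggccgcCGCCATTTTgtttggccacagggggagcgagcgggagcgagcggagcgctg
Stag1, chr9:100643198-100643497: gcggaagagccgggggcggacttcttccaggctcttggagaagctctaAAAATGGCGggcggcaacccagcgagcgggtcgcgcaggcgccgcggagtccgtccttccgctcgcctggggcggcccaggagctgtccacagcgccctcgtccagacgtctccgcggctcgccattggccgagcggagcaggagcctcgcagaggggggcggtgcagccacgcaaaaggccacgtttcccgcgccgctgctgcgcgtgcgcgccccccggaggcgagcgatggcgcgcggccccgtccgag
Wapl, chr14:34673678-34673977: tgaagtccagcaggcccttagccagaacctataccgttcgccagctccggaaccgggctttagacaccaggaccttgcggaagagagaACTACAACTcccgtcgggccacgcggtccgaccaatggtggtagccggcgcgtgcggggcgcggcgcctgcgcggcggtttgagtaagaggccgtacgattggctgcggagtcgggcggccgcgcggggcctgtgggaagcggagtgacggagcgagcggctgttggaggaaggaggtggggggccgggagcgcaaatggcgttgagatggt
Capitals mark the YY1 motif AANATGGCG in Ctcf, Smc3 and Stag1, and the ZNF143 motif ACTACAANT in Wapl. Both strands were searched, and both motifs were chosen after the sequences had been looked at. The match in Ctcf lies on the minus strand with its first base 9 bases after the start, and the one in Smc3, also on the minus strand, at base -1. The match in Stag1 lies on the plus strand at -202, and the one in Wapl at -162. Among 27025 promoters of the same length, 2.51% held the YY1 motif and 1.64% the ZNF143 motif. The CTCF core consensus, present in 0.551% of all promoters, matched in none of these. None of the 4 promoters held both motifs. The promoters of Smc1a and Zfp143, which are not shown, held neither. A match shows that the letters are there and says nothing of binding.

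What the promoters share is a high content of CpG. All 6 had more than 0.6 of the CpG number that their base composition predicts, from 0.74 in Zfp143 to 1.16 in Ctcf, while the median of all promoters was 0.39 and 36.4% passed 0.6. Their GC content ran from 58.3% in Smc1a to 75.3% in Ctcf, against a median of 52.7%. Zfp143 has 2 entries in the table, and these ranges use the first; the other had a CpG ratio of 0.72 and a GC content of 57.7%.

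Ctcf (ENSMUSG00000005698, chr8:105636568-105682922) encodes the zinc-finger protein that sets loop ends. It measured 81.8, 85.7 and 84.2 CPM in the controls and 86.3, 76.9 and 86.2 CPM in Kdm1a-ifKO. The groups overlapped: the highest and the lowest library were both Kdm1a-ifKO, and Kdm1a-ifKO 2 was the low one. The log2FC was -0.01 (95% CI -0.14 to 0.11, edgeR adjusted p = 0.916), an interval of 0.906 to 1.08 as a ratio. Exons of Ctcf share 7.61% of their bases with genes on the opposite strand, among them Agrp, and the strand setting of the counts is not given in the sources used here.

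Ctcfl (ENSMUSG00000070495, chr2:173093609-173119525), best known from male germ cells, was at the limit of detection. It had 0, 0 and 1 counts in the controls and 1, 1 and 0 in Kdm1a-ifKO, too few to be tested. A count of 0 in control 1 allows up to 3 counts, or 0.157 CPM, which covers counting error only. No difference was detectable at this depth.

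Zfp143 (ENSMUSG00000061079, chr7:110061217-110095394) had the lowest level of the 9 tested genes. Its controls measured 15.7, 14.2 and 14.3 CPM and its Kdm1a-ifKO libraries 14.4, 13.1 and 14.7 CPM. The ranges overlapped, with a log2FC of -0.07 (95% CI -0.26 to 0.13, edgeR adjusted p = 0.695). With 1 library left out, the log2FC ran from -0.10 to -0.02.

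The ring genes come next, and their groups overlapped. Rad21 (ENSMUSG00000022314, chr15:51962240-51991747), which encodes the subunit that closes the ring, measured 109, 118 and 118 CPM in the controls and 115, 120 and 109 CPM in Kdm1a-ifKO. Its log2FC was -0.0010 (95% CI -0.12 to 0.12, edgeR adjusted p = 0.996). Smc3 (ENSMUSG00000024974, chr19:53600398-53645833) measured 57.6, 58.9 and 63.9 CPM in the controls and 60.7, 58.7 and 59.8 CPM in Kdm1a-ifKO. The genotypes overlapped in both genes, and the Kdm1a-ifKO libraries of Smc3 all lay inside the range of its controls. The log2FC of Smc3 was -0.0100 (95% CI -0.14 to 0.12, edgeR adjusted p = 0.941). Smc1a (ENSMUSG00000041133, chrX:152016428-152062694), which encodes the partner of SMC3, measured 97.3, 93.1 and 97.1 CPM in the controls and 94.6, 93.4 and 90.0 CPM in Kdm1a-ifKO. Its lowest library was Kdm1a-ifKO 3, and the groups overlapped, with a log2FC of -0.05 (95% CI -0.16 to 0.06, edgeR adjusted p = 0.609). For these 3 genes and Ctcf, the log2FC intervals all lie between -0.16 and 0.12.

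STAG1 and STAG2 are alternative subunits of the ring, and each ring carries 1 of them. Stag1 (ENSMUSG00000037286, chr9:100597798-100959375) measured 58.6, 60.9 and 66.8 CPM in the controls and 57.0, 55.6 and 53.6 CPM in Kdm1a-ifKO. Each Kdm1a-ifKO library lay below each control. The log2FC was -0.16 (95% CI -0.30 to -0.03, edgeR adjusted p = 0.128), which did not pass the threshold. Stag2 (ENSMUSG00000025862, chrX:42149317-42277185) measured 56.1, 62.3 and 73.5 CPM in the controls and 61.5, 59.5 and 60.3 CPM in Kdm1a-ifKO. Its controls spread widely around a tight Kdm1a-ifKO group, with control 3 highest and control 1 lowest of the 6 libraries. The log2FC was -0.08 (95% CI -0.27 to 0.11, edgeR adjusted p = 0.613), and without control 3 it was 0.03.

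The balance of the 2 subunits was compared per length, as TPM (counts divided by the summed exon length and scaled to the same total in each library). Stag2 made up 57.7%, 59.3% and 61.0% of the summed Stag1 and Stag2 level in the controls and 60.6%, 60.4% and 61.6% in Kdm1a-ifKO. The means were 59.3% ± 1.66 (SD, n = 3) and 60.9% ± 0.654 (SD, n = 3), a difference of 1.52 percentage points with an overlap at control 3 (2-sided exact permutation p = 0.3, where 0.1 is the smallest that 3 against 3 mice allow). The difference was 0.699 points without control 1 and 2.36 points without control 3 (exact permutation p = 0.1, again the smallest possible).

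Nipbl and Wapl act in opposite senses on cohesin, as loader and as release factor, and both had lower values in Kdm1a-ifKO. Nipbl (ENSMUSG00000022141, chr15:8290617-8444463) measured 47.8, 49.1 and 65.4 CPM in the controls and 45.6, 43.1 and 47.7 CPM in Kdm1a-ifKO. The ranges did not overlap, but control 1 at 47.8 CPM and Kdm1a-ifKO 3 at 47.7 CPM almost met, and control 3 stood well above the rest. The log2FC was -0.25 (95% CI -0.52 to 0.01, edgeR adjusted p = 0.228). Wapl (ENSMUSG00000041408, chr14:34673928-34747983) measured 54.8, 58.2 and 66.1 CPM in the controls and 53.6, 49.6 and 51.6 CPM in Kdm1a-ifKO. Control 3 was again the highest, and every Kdm1a-ifKO library lay below every control. The log2FC was -0.21 (95% CI -0.36 to -0.06, edgeR adjusted p = 0.0894), which did not pass the threshold.

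Stag1, Nipbl and Wapl were the 3 genes whose Kdm1a-ifKO libraries all lay below the controls, beside 14.4% of all tested genes that were lower by that rule. The 0 genes that lay above stand beside 15.7%. The calls moved with the filter and with single libraries. Without a filter on low counts, edgeR called Nipbl (adjusted p = 0.00666) and Wapl (adjusted p = 0.0294). That fit tested 28781 genes and called 2537. Its log2FC, -0.24 for Nipbl and -0.20 for Wapl, stayed close to the main fit while the adjusted p-values of both fell. For Kdm1a the edgeR adjusted p fell to 2.02e-53 at a log2FC of -1.06. Without control 1, Wapl was called. Adjusted p-values over the 14 alternatives ran from 0.00666 to 0.718 for Nipbl and from 0.0294 to 0.41 for Wapl. Without control 3, 0 of the 9 genes had an unadjusted p under 0.05 in edgeR, and the log2FC was -0.09 for Nipbl, -0.13 for Wapl and -0.11 for Stag1.

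The ratio of Wapl to Nipbl, in TPM, was 1.63, 1.69 and 1.44 in the controls and 1.67, 1.64 and 1.54 in Kdm1a-ifKO. Control 3 had the lowest ratio and the groups overlapped. The means of 1.58 ± 0.13 (SD, n = 3) and 1.62 ± 0.0693 (SD, n = 3) differed by 0.032, less than the spread between mice (2-sided exact permutation p = 0.8). Without control 3 the difference was -0.041.

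**Figure D2:**
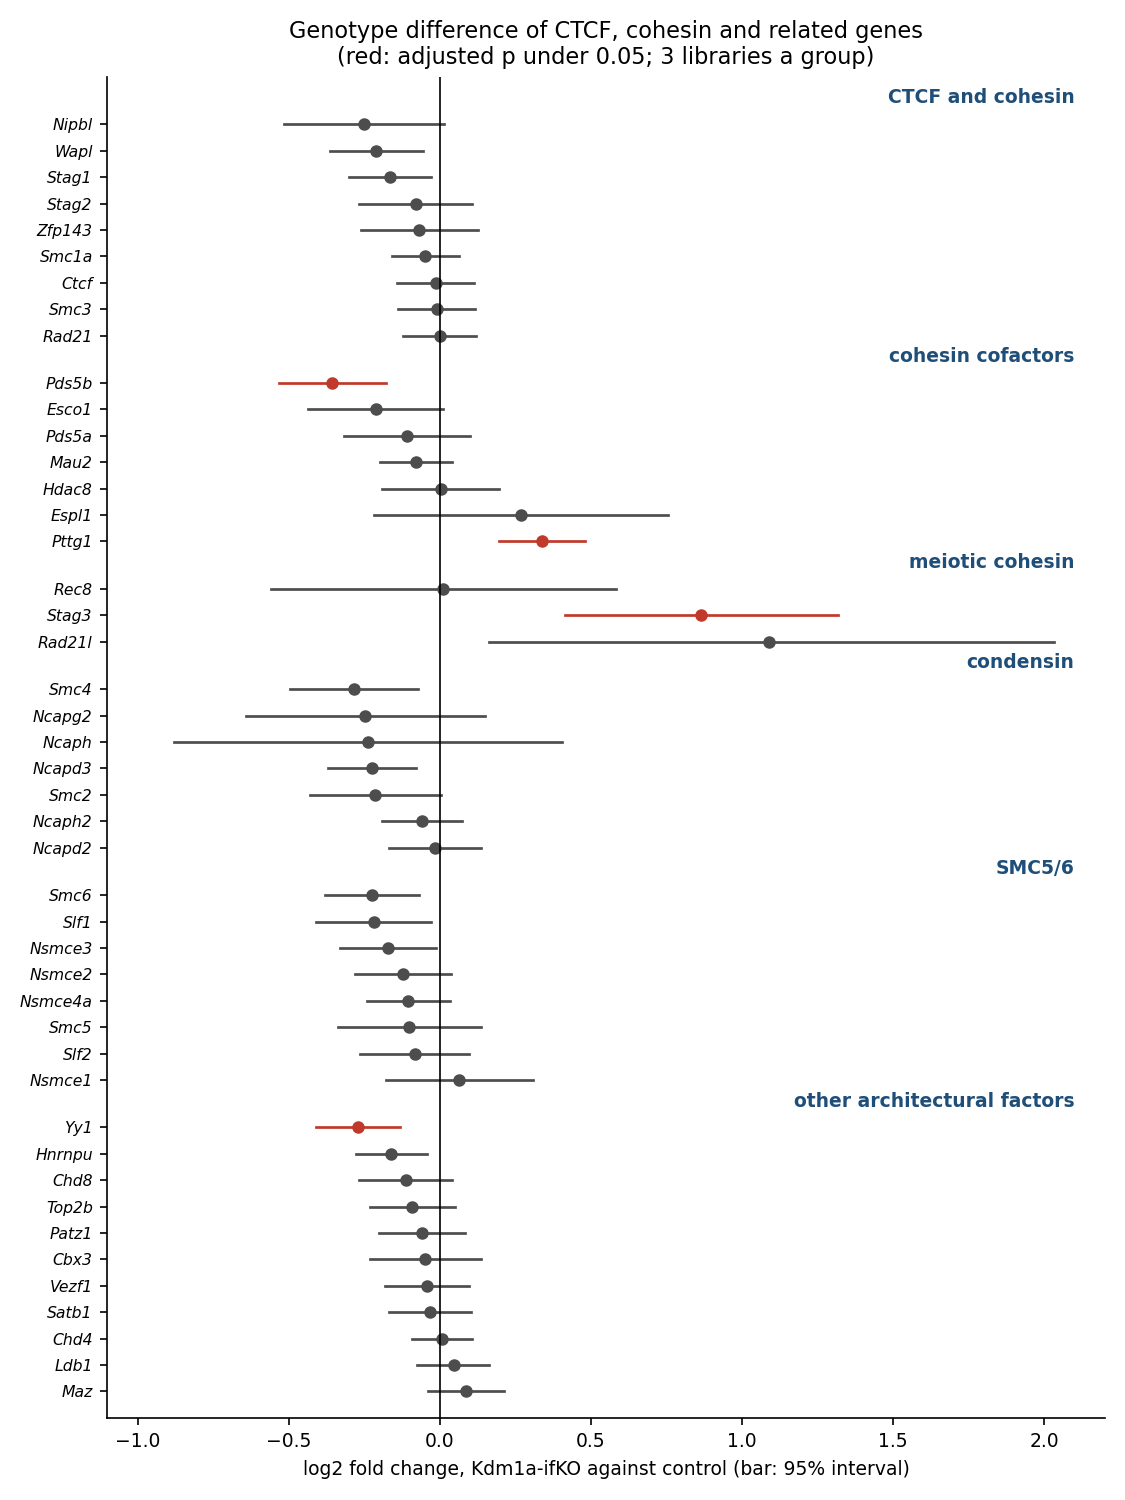
Fitted log2FC of Kdm1a-ifKO against control with 95% confidence intervals for the 9 tested genes and the genes of related complexes reported here, with called genes in red. The intervals of Stag1 and Wapl end below 0 (-0.03 and -0.06), and that of Nipbl reaches 0.01.

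Compared with each other in the controls, per length, Rad21 RNA was the most abundant at 108 ± 4.49 TPM (SD, n = 3 here and below). Ctcf followed at 68.6 ± 1.45 TPM and Smc1a at 66.0 ± 1.66 TPM, whose ranges overlapped. Smc3 had 43.1 ± 2.24 TPM, so that the RNAs of the ring's core subunits were not at equal levels. Wapl had 35.8 ± 3.35 TPM and Stag2 30.7 ± 4.10 TPM, with overlapping ranges. Nipbl at 22.8 ± 4.05 TPM overlapped both Stag2 above it and Stag1 below it, which had 20.9 ± 1.35 TPM. Zfp143 had 16.8 ± 0.984 TPM, and Ctcfl 0.022 TPM. Rad21 stood at the 89.6th percentile of tested genes by this measure and Zfp143 at the 48.7th.

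**Figure D3:**
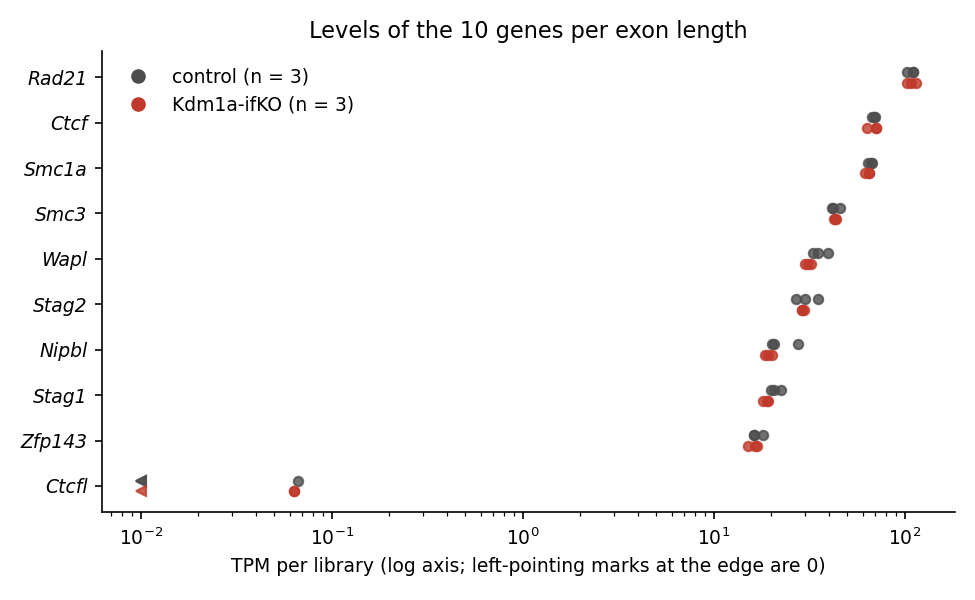
TPM of each gene in controls and Kdm1a-ifKO, ordered by the control mean, on a log axis with 1 point a library and libraries at 0 at the left edge. Rad21 leads at 108 TPM in controls, and neighbours such as Ctcf at 68.6 and Smc1a at 66.0 TPM overlap.

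The genes whose log2 CPM followed that of Ctcf most closely over the 6 libraries, among 10310 genes with a mean of at least 10 CPM, were Psma5, Slc37a3, Sept8, Tigar and Amz2. Their Pearson r ran from 0.991 to 0.982. This is a description over 6 libraries of 2 genotypes.

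The wider cohesin and condensin machinery was listed as 44 further genes, of which 37 were tested. In edgeR, 2 were higher and 3 lower in Kdm1a-ifKO, where 6.04% of all tested genes were higher and 2.82% lower. The median log2FC of the 37 was -0.09, against -0.0034 over all tested genes. Among 11 cohesin cofactors, 7 were tested. Pttg1, which encodes securin, the inhibitor of the protease separase that cuts RAD21, rose from 28.4, 26.6 and 29.3 CPM in the controls to 35.4, 34.7 and 36.4 CPM (log2FC 0.34, edgeR adjusted p = 0.0064), a call made under each of the 14 alternatives. Pds5b, whose product binds the ring together with WAPL, fell from 115, 121 and 147 CPM to 99.8, 99.3 and 100 CPM (log2FC -0.36, edgeR adjusted p = 0.0199). Control 3 was again the highest library for Pds5b, and without it Pds5b was still called. Leaving out Kdm1a-ifKO 1 or Kdm1a-ifKO 3 ended that call at a log2FC of -0.36 in either fit, with a largest adjusted p of 0.071 over the alternatives.

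Of 4 genes of meiotic cohesin, 3 were tested and Stag3 was called. Rad21l (log2FC 1.09, edgeR adjusted p = 0.139) did not pass, but was called without the filter on low counts and is named for that call. Stag3, the STAG gene of germ cells, rose from 1.78, 2.15 and 1.40 CPM to 3.50, 3.40 and 2.82 CPM (log2FC 0.86, edgeR adjusted p = 0.0213). Its level stayed far below that of Stag1 and Stag2 in both genotypes. The call was lost in DESeq2, without control 1, control 3, Kdm1a-ifKO 1 or Kdm1a-ifKO 2, and without both libraries that stand apart, with adjusted p-values from 0.00286 to 0.0945 over the alternatives. In the fits that lost the call, the log2FC of Stag3 ran from 0.69 to 0.87.

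The 44 genes also include 13 other architectural factors, of which 12 were tested. Of these, Yy1, whose product binds promoters and enhancers and can join them, fell from 31.9, 33.5 and 34.2 CPM to 27.1, 27.2 and 28.2 CPM (log2FC -0.27, edgeR adjusted p = 0.0205). The groups did not overlap, and the call was lost without control 2, Kdm1a-ifKO 1 or Kdm1a-ifKO 2, without both libraries that stand apart, and with replicate number as a block (adjusted p = 0.0513), with a largest adjusted p of 0.0759 over the alternatives. In those fits its log2FC ran from -0.27 to -0.24.

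The remaining SMC complexes held no called gene. Condensin compacts mitotic chromosomes, and 7 of its 8 genes were tested. By edgeR and by DESeq2 0 were called, and 2 had an unadjusted edgeR p under 0.05, both lower, beside the 11.3% of all tested genes that were lower by that rule. Without the filter on low counts, edgeR called Ncapd3, named here because of that call. All 7 lay below 0, with a median log2FC of -0.23 against -0.0034 over all tested genes. Ncapd2 (log2FC -0.02), however, lay above 0 with upper-quartile or library-size scaling. Ncaph2, the most abundant condensin gene per length, had a log2FC of -0.06 (edgeR adjusted p = 0.609). Of the 8 genes of the SMC5/6 complex, which serves DNA repair, all were tested, 0 were called by either tool and 3 had an unadjusted edgeR p under 0.05, all lower. Without the filter, Smc6 was called, and it too is named for that call. The median log2FC of the 8 was -0.11. In 5 of them all Kdm1a-ifKO libraries lay below the controls, beside 14.4% of all tested genes that were lower by that rule. Slf2, the most abundant gene of the complex, had a log2FC of -0.08 (edgeR adjusted p = 0.579) and was above 0 without control 3, at 0.03. Nsmce1 was the 1 gene of the complex above 0 (log2FC 0.06, edgeR adjusted p = 0.776), and it lay at -0.02 without control 2.

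The genes with too few counts to test were Esco2, Cdca5, Sgo1, Sgo2a, Smc1b, Ncapg and Adnp. For Adnp, 82.1% of the exon bases are shared with an overlapping gene model on the same strand, so its count does not measure its level.

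Gene length ran alongside these values. Among genes of at least 10 CPM, the median log2FC was 0.02 for the 2130 genes that span under 10 kb and -0.11 for the 419 genes that span 300 kb or more. Between these, it was -0.0011 for 10 to 30 kb, -0.04 for 30 to 100 kb and -0.05 for 100 to 300 kb. From the shortest range to the longest, 43.9%, 50.4%, 61.8%, 62.2% and 76.8% of the genes lay below 0. Control 3 carried the strongest trend: against each gene's mean over the 6 libraries, its median deviation went from -0.06 for the shortest genes to 0.13 for the longest. Stag1 spans 361.6 kb, Nipbl 153.8 kb, Pds5b 137.0 kb, Stag2 127.9 kb and Wapl 74.1 kb, while Ctcf, Smc1a and Smc3 span 46.4, 46.3 and 45.4 kb. The log2FC of Stag1, Nipbl, Wapl, Pds5b, Stag2, Zfp143 and Smc1a lay further below 0 than the median of genes of like span. Those of Ctcf, Smc3 and Rad21 did not. These medians include control 3. Without it, the log2FC was -0.11 for Stag1, -0.09 for Nipbl, -0.13 for Wapl, -0.24 for Pds5b and 0.03 for Stag2. The part of gene length in these values was not tested.

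**Figure D4:**
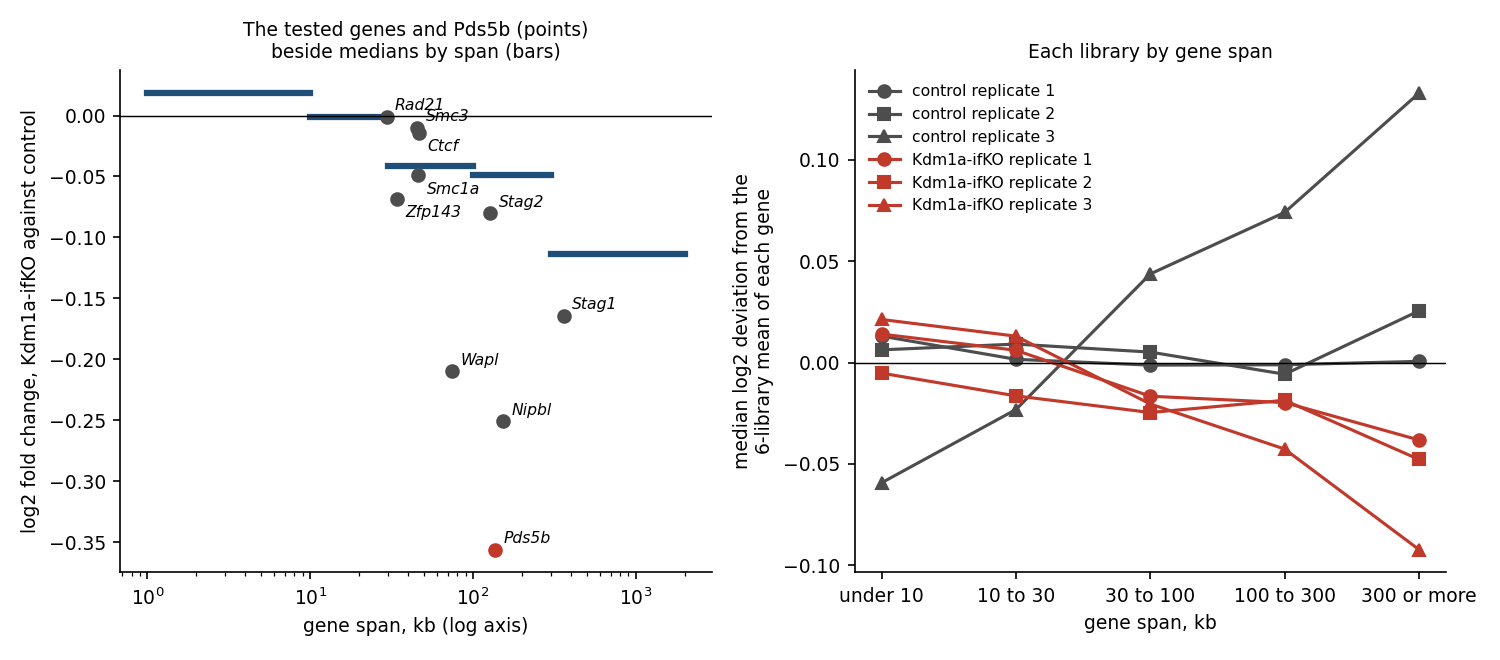
Left, log2FC of the tested genes and Pds5b against gene span in kb on a log axis, with bars at the median log2FC of all genes of at least 10 CPM in each span range (the outer ends of the first and last bar are drawing limits). Right, median log2 deviation of each library from the 6-library mean by span range, in which control 3 runs from -0.06 to 0.13.

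Lists of astrocyte and microglia markers summed higher in Kdm1a-ifKO, each without overlap. Of 6 astrocyte markers, edgeR called 2 higher, where 6.04% of all tested genes were higher. The summed level of the 6 was 1804, 1705 and 1837 CPM in the controls and 2002, 2068 and 2198 CPM in Kdm1a-ifKO. It was 17.2% higher on average, without overlap. The most abundant, Slc1a3, had a log2FC of 0.22 (edgeR adjusted p = 0.0161) and S100b 0.26 (edgeR adjusted p = 0.0111). Of 6 microglia markers, 3 were called higher, beside the same 6.04% of all tested genes. The called markers were Cx3cr1 (log2FC 0.27), Tmem119 (log2FC 0.42) and the most abundant, Csf1r (log2FC 0.33). The microglia list summed to 247, 235 and 258 CPM in the controls and 270, 308 and 335 CPM in Kdm1a-ifKO, 23.5% higher. Each of these 5 glial calls was lost without 1 or more of the libraries. Slc1a3 lost it without control 1 or 2 or Kdm1a-ifKO 1 or 3, at a log2FC of 0.19 to 0.23. S100b lost it without control 2 or Kdm1a-ifKO 3 (log2FC 0.22 to 0.23). Cx3cr1 lost it without control 1 or 2 or Kdm1a-ifKO 2 or 3 (log2FC 0.22 to 0.26). Tmem119 lost it without any 1 of the controls (log2FC 0.36 to 0.46) or Kdm1a-ifKO 3 (log2FC 0.27). Csf1r lost it without any 1 of the controls or Kdm1a-ifKO 2 or 3 (log2FC 0.24 to 0.36). Without both libraries that stand apart, Tmem119 (log2FC 0.49) and Csf1r (log2FC 0.34) also lost it.

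Markers of excitatory neurons, the cells in which creERT2 acts in Kdm1a-ifKO mice, were expressed in all libraries. The 6 markers of excitatory neurons, led by Camk2a (log2FC 0.05, edgeR adjusted p = 0.584), summed to 7289, 7027 and 7143 CPM in the controls and 7579, 6839 and 7424 CPM in Kdm1a-ifKO, with overlap. Neurod6 was the only called gene of the 6 (log2FC -0.36), lower where 2.82% of all tested genes were. In the list, 4 of the 6 lay below 0, with a median log2FC of -0.06. Interneuron markers, led by Gad1 (log2FC -0.09, edgeR adjusted p = 0.363), summed to 824, 878 and 808 CPM and to 814, 785 and 783 CPM. In that list 5 of the 6 lay below 0, with a median log2FC of -0.13, and Sst lay above 0 (log2FC 0.07). Vip was the only called gene (log2FC -0.46), lower where 2.82% of all tested genes were. That call was lost without Kdm1a-ifKO 1 or 3. At an unadjusted edgeR p under 0.05, 3 of the list were lower, beside 11.3% of all tested genes. Oligodendrocyte markers, led by Mbp (log2FC 0.15), ranged from 5171 to 5705 CPM in the controls and from 4800 to 6253 CPM in Kdm1a-ifKO. None of the 6 was called by edgeR or DESeq2 or had an unadjusted edgeR p under 0.05, although Mbp was called without Kdm1a-ifKO 1. Endothelial markers, led by Flt1 (log2FC 0.13), ranged from 188 to 194 CPM and from 185 to 228 CPM, again with 0 of 6 called or under an unadjusted p of 0.05.

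Ependymal and choroid plexus markers ranged from 47.0 to 77.9 CPM in the controls and from 76.6 to 88.8 CPM in Kdm1a-ifKO. Kl, the most abundant of the 6 in the controls, rose from a mean of 24.4 to 59.0 CPM (log2FC 1.28, edgeR adjusted p = 1.32e-07). It was the only called gene of the list in edgeR, where 6.04% of all tested genes were higher. In the list, 3 of the 6 lay below 0 and the median log2FC was -0.14. Cycling cells, in which condensin compacts chromosomes, left little RNA: their markers summed to 5.36 to 7.63 CPM in the controls and 6.96 to 8.12 CPM in Kdm1a-ifKO, and Cdk1, Ccnb1 and Aurkb had too few counts to test. Mki67, their most abundant in the controls, had a log2FC of -0.38 (edgeR adjusted p = 0.333) and of -0.09 without control 3, while Birc5 rose (log2FC 1.41, edgeR adjusted p = 0.00144). Germ cell markers, a point of reference for Ctcfl and Stag3, summed to 8.05 to 12.7 CPM and 7.97 to 12.6 CPM. Ddx4 led them (log2FC -0.08, edgeR adjusted p = 0.839), Sycp3, Sycp1, Mael and Tex14 had too few counts to test, and 0 were called by edgeR or DESeq2 or had an unadjusted p under 0.05. The part of cell composition in the values of Stag1, Nipbl, Wapl and the genes of related complexes was not tested.

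In the nuclei of excitatory neurons, 5 of the 10 genes had an anchor of a CTCF loop within 10 kb: Ctcf, Ctcfl, Smc3, Stag1 and Nipbl. Over the 16752 tested genes with a position, 56.9% had one. The loop list holds 27786 loops with 3 to 1242 PETs, the paired-end tags that join the 2 anchors, and a median of 5. Read depth before loop calling is unknown from this list. Within 2 kb of the annotated start, 3 genes had an anchor, Ctcf, Smc3 and Nipbl, against 21.4% of tested genes.

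The Ctcf gene had 8 loops with 50 PETs in all. The strongest, of 28 PETs, spanned 13.8 kb and joined an anchor over the Ctcf promoter (-1.67 to 1.24 kb from the start) to one upstream (-16.34 to -11.59 kb). All 300 bases of the promoter shown above lay in that anchor. Agrp and Ripor1 overlap the upstream anchor or lie within 10 kb of it, and in it the CTCF core consensus matched at 1 place, on the plus strand, in an intron of Agrp.
Upstream anchor of Ctcf, chr8:105622557-105622586, plus strand: gagctgtcgCCACCAGGGGGCagcagaact
Capitals mark the consensus match. Ripor1 had a log2FC of 0.06 (edgeR adjusted p = 0.533).

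Ctcfl, though almost without RNA, had the most PETs of the 10 genes, 340 over 11 loops. Its strongest loop had 255 PETs, rank 31 of the 27786, and spanned 71.7 kb from within the gene to an anchor without coding genes. The consensus matched at 4 places in that far anchor, 1 on the plus strand and 3 on the minus strand. A match of each strand is shown because their directions differ within 1 anchor, written on the plus strand of the genome.
Far anchor of Ctcfl, minus-strand match, chr2:173184294-173184323: atcaagggtGCCACCTGGTGGccgaaatct
Far anchor of Ctcfl, plus-strand match, chr2:173186509-173186538: agtacgtgaCCAGCAGAGGGCgctcggccc
Another loop of Ctcfl, of 38 PETs, spanned 453.9 kb to an anchor that overlaps Ankrd60 or lies within 10 kb of it.

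Stag1 had 3 loops. The strongest, of 16 PETs over 97.4 kb, joined its promoter as listed by RefSeq to an anchor near Nck1 and Slc35g2. The GENCODE start of Stag1 lies 45.65 kb upstream of that of RefSeq, so by the GENCODE start the gene has no anchor within 2 kb. The anchor holds 2 consensus matches on the plus strand in an exon of Stag1, 125 and 183 bases after the RefSeq start, and all 300 promoter bases shown above.
Stag1 anchor, chr9:100643564-100643593, plus strand: gcagcgcggCCAGCAGAGGGCggtcgggac
Stag1 anchor, chr9:100643622-100643651, plus strand: tggaaaatgCCACCAGATGGCgggttagga
At the other end, Nck1 had a log2FC of -0.06 (edgeR adjusted p = 0.686) and Slc35g2 of 0.18 (edgeR adjusted p = 0.214).

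Smc3 had 7 loops, and the strongest had 32 PETs over 113.7 kb. It ran from beyond the end of the gene to an anchor that overlaps Rbm20 or lies within 10 kb of it. Rbm20 had a log2FC of 0.30 (edgeR adjusted p = 0.380). The log2FC of Rbm20 ran from 0.15 to 0.44 with 1 library left out. A loop of 3 PETs had an anchor at the start of Smc3, which covers 283 of the 300 promoter bases. Nipbl had 2 loops of 4 PETs, 1 with an anchor at its start. The far anchor of the other overlaps Slc1a3, the astrocyte marker given above, or lies within 10 kb of it. Wapl, Rad21 and Zfp143 had no anchor within 10 kb but lay inside loops. Wapl was enclosed by 6 loops with 102 PETs, and its nearest anchor was 19.9 kb away. Rad21 was enclosed by 6 loops with 35 PETs and Zfp143 by 3 loops with 9 PETs, with nearest anchors at 48.5 and 68.2 kb.

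Smc1a and Stag2 lie on the X chromosome, where the list has few loops: 55 in all, 0.198% of the total. Their nearest anchors were 7543.9 and 5586.3 kb away. Of 587 tested genes on X, 46 had an anchor within 10 kb (7.84%), so most X-linked genes resembled Smc1a and Stag2 in having none in this library.

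**Figure D5:**
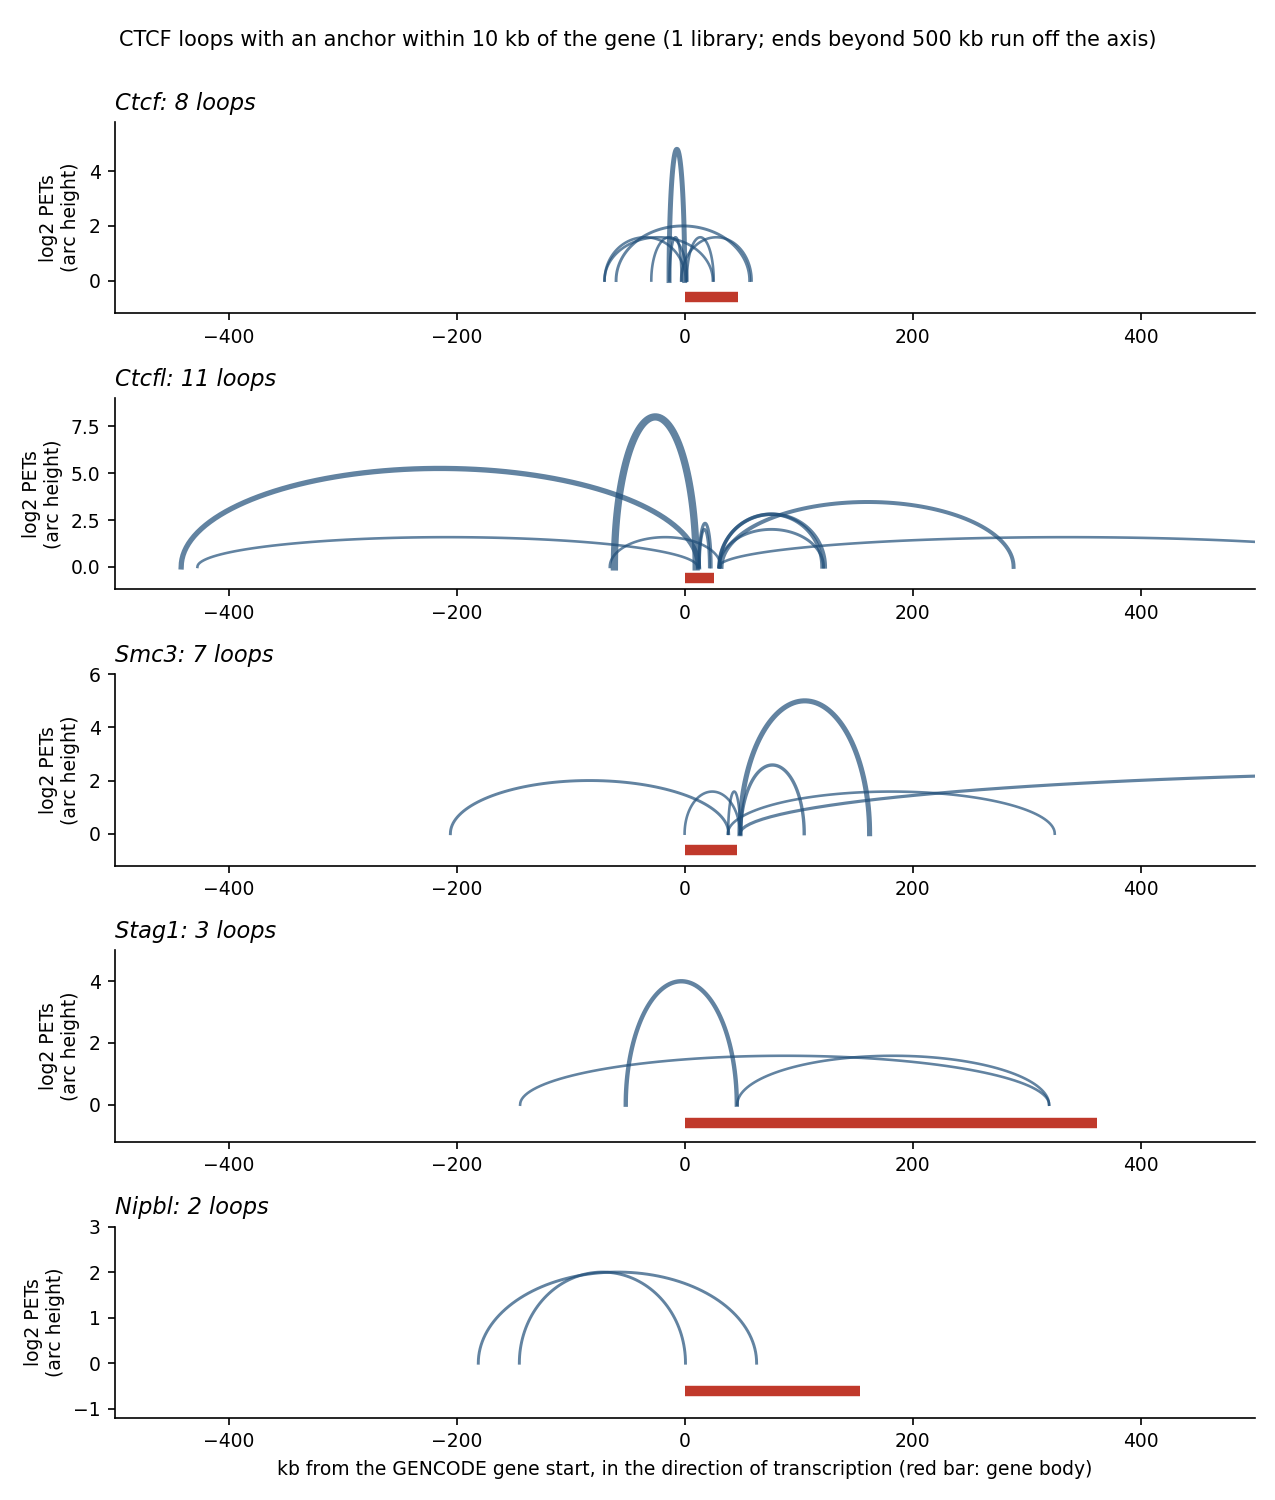
Loops with an anchor within 10 kb of a gene, drawn by distance in kb from the GENCODE start in the direction of transcription, with arc height by log2 PETs. Ctcfl has the loop with most PETs, 255, and Smc1a, Stag2, Wapl, Rad21 and Zfp143 have no loop of this kind.

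Over the whole library, 20.7% of the 55480 anchors held a match to the CTCF core consensus. In 1312 loops both anchors held matches on 1 strand each. The matches faced each other in 876 of these (66.8%), pointed the same way in 391 and away from each other in 45.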

How the data were processed

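RNA-seq of 3 control and 3 Kdm1a-ifKO hippocampi and 1 CTCF ChIA-PET library were used. The authors trimmed single-end poly-A reads (cutadapt 1.18), aligned them to mm10 (HISAT2 2.1.0) and counted them per gene (HTSeq 0.11.1), and the deposited values are raw read counts. The authors called loops with ChIA-PIPE, and the deposited loop values are PET counts per pair of anchors. Genes kept by filterByExpr were scaled by TMM and tested here with robust quasi-likelihood F tests (edgeR 4.0.16, R 4.3.3), adjusted by Benjamini-Hochberg over all tested genes. The fit was tested on simulated counts in which all genes shared the same dispersion and no library stood apart, unlike these data. Intervals of 95% use the fit's standard error. Single ratios were compared by exact permutation. Positions came from GENCODE M21, sequences and motif matches from GRCm38.p6. Alternatives were DESeq2 1.42.0, other scalings and filters, a replicate block, each library left out, and other anchor rules. The members and lists were chosen with earlier results of these data known. Named genes were the 10 genes, called genes and the most abundant genes of the other lists (a result that falls under this rule is not reported here), and genes near the far anchor of each strongest loop. Other assays of the series were not used here.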

Additional observations from a re-analysis of the deposited data

How the results depend on the processing

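Of 518 log2FC values, for 37 genes under 14 alternatives, 448 kept their direction and their side of the threshold, and Kdm1a was called in all 14 fits (log2FC -1.09 to -1.04). The cause of the changes below was not tested.

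Without a filter on low counts, 2 of the 10 genes (Nipbl and Wapl) and 8 genes of the wider list were called. In all, 2537 of 28781 tested genes were called, 1090 of them lower. With each library left out in turn, the calls were 0 to 1 of the 10 genes, 2 to 4 of the wider list and 783 (without Kdm1a-ifKO 3) to 1460 in all, 646 to 876 higher and 137 to 584 lower. With replicate numbers as a block, 249 genes were lower, but libraries of the same number did not vary together, with correlations of -0.04, -0.10 and -0.16. A fit of 2 against 2 libraries, without control 3 and Kdm1a-ifKO 2, was added after the data were seen and called 3 genes of the wider list.

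Signs turned where log2FC was near 0. With upper-quartile scaling, Ctcf was at 0.012, Rad21 at 0.025, Smc3 at 0.016 and Ncapd2 at 0.0099. With library-size scaling, Ctcf was at 0.0056, Rad21 at 0.019, Smc3 at 0.010 and Ncapd2 at 0.0039. Without the filter, Rad21 was at 0.0041. With 2 against 2 libraries, Ctcf was at 0.045, Smc3 at 0.052, Stag2 at 0.046, Ncapd2 at 0.034, Slf2 at 0.040, Ddx4 at 0.12 and Nck1 at 0.013. With 1 library left out, log2FC ran from -0.043 to 0.038 for Ctcf, -0.037 to 0.030 for Rad21, -0.039 to 0.039 for Smc3, -0.165 to 0.034 for Stag2, -0.071 to 0.014 for Ncapd2, -0.16 to 0.034 for Slf2, -0.020 to 0.139 for Nsmce1 and -0.258 to 0.057 for Ddx4, and the difference in the Wapl to Nipbl ratio from -0.041 to 0.083. Ordered by CPM rather than per length, 3 of the 10 genes kept their rank. With anchors within 2 kb of the start, 3 genes had one, and 4 by the RefSeq start, a rule added after the data were seen.

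The 95% intervals of the 9 tested genes together reach from -0.52 to 0.13 on the log2 scale, with 3 mice a genotype. The 1 ChIA-PET library has no replicate spread.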
